A study of Mus musculus with 34 samples.

Results

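The 9 genes described here belong to retinoid signalling and retinoid metabolism: the retinoic acid receptors Rara, Rarb and Rarg, the coregulator Trim24, and Cyp26a1, Rbp4, Aldh1a1, Dhrs3 and Lrat. They were measured in liver RNA of C57BL/6 mouse pups at postnatal day (PND) 15. Members were the non-control probes whose RefSeq accession maps to 1 of these symbols. All 9 genes were found, with 12 of the 41174 probes and out of 16535 named genes. Dhrs3, Lrat and Rarg had 2 probes each. Rarb and Trim24 entered the list because they were higher after hormone on these same arrays, so their levels across treatments are given as a description, with no test. The other 7 genes were tested.

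The 34 arrays held 17 males and 17 females in 8 groups of sex and treatment. Control pups (4 males, 4 females) had untreated dams and a saline injection. Hypo pups (4 males, 5 females) had dams that drank 0.05% methimazole and 1% perchlorate, drugs that block hormone production by the thyroid, for 3 days, and they also received saline. Hyper pups (5 males, 5 females) had untreated dams and were injected 4 hours before collection with 50 µg of thyroxine (T4) and 5 µg of triiodothyronine (T3) per 100 g body weight. Hypo+ pups (4 males, 3 females) had the same drugs as hypo pups and were injected at 4 hours with 20 µg of T4 and 2 µg of T3 per 100 g. The hypo+ pups were those of the injected, drug-exposed pups whose serum T4 lay near or slightly above that of controls, so this group was chosen on a measured value. Hyper and hypo+ pups thus differed in dose as well as in the drugs. Each pup was 1 array and males and females of a treatment may share dams. Values are log2 ratios of the pup's Cy5 signal to the Cy3 signal of 1 universal mouse reference RNA on the same array, after loess normalization, and differences are between group means of these ratios.

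Retinoids are vitamin A and its derivatives. The liver stores vitamin A as retinyl esters, chiefly in stellate cells, and hepatocytes release retinol into the blood on a carrier protein. Inside cells retinol is oxidised to retinal and then to retinoic acid, which binds the retinoic acid receptors. These receptors act on DNA as dimers with a retinoid X receptor, the same partner that thyroid hormone receptors use. Receptors of both kinds recognise pairs of short half-sites arranged as direct repeats, and the spacing between the half-sites helps to set which receptor binds.

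RefSeq promoter windows of the GRCm38.p6 assembly, from 250 bases before to 50 bases after each transcription start, were found for 9 of the 9 genes, with 18 windows in all. The windows were searched on both strands for direct repeats of the half-sites GGTCA and GTTCA. For the spacing known as DR5, a classical type of retinoic acid response element, the 4 motifs were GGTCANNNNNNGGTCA, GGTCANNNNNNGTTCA, GTTCANNNNNNGGTCA and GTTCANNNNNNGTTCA. A DR5 match was found in 0.247% of the 32851 windows, and in 2 of the 18 member windows, that of Rarb and that of Cyp26a1. Both genes are known to be induced by retinoic acid and such a match was likely beforehand, so the 2 windows are not read against the share of all windows. In Rarb the match ran from base -52 to base -37 counted from the start, and in Cyp26a1 from base -32 to base -17 on the opposite strand. The shorter spacings DR1 (GGTCANNGGTCA), DR2 (GGTCANNNGGTCA) and DR4 (GGTCANNNNNGGTCA), the last a classical spacing of thyroid hormone response elements, were searched with GTTCA allowed in either place and counted separately. They were found in 0.402%, 0.399% and 0.207% of all windows and in 0 member windows. A match is a run of letters whose binding was not tested here, and no match says only that these letters are not in these windows. The 250 bases before the start are shown for both genes with a match and for the first of the 2 Trim24 starts, because Trim24 and Rarb are the pair the values below turn on. Capitals mark the DR5 match, and Trim24 has no capitals because none was found. The Rarb stretch is chr14:16575477-16575726 on the minus strand, that of Cyp26a1 is chr19:37697558-37697807 on the plus strand, and that of Trim24 is chr6:37870561-37870810 on the plus strand.
Rarb: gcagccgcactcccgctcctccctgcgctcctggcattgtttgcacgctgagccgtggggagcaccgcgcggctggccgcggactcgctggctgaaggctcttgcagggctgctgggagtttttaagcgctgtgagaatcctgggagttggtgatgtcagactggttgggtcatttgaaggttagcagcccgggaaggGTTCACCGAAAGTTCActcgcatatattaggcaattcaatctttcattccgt
Cyp26a1: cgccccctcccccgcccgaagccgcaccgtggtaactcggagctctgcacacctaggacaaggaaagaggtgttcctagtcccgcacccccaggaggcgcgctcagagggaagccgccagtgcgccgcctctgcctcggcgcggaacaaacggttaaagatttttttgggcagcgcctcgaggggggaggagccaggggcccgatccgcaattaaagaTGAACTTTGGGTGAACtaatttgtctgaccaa
Trim24: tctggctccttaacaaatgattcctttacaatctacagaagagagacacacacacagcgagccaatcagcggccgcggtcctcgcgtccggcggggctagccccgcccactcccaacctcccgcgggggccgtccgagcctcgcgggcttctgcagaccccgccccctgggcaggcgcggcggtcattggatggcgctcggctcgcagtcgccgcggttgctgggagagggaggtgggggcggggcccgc

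Across the arrays the median signal was 146 to 199 units in Cy5 and 64 to 100 in Cy3, and 60.8% to 79.4% of probes were well above background in Cy5. All 12 member probes but 2 were well above background in Cy5 on every array, the exceptions being Rara (30 of 34 arrays) and the dimmer Rarg probe (28). The labelled tissue was checked with marker genes: the 6 hepatocyte markers on the array were well above background in Cy5 on every array. Their summed Cy5 level stayed within 1.14-fold over the 33 arrays with all 6 measured. Summed levels are of Cy5 after quantile normalization, which holds the brightest signals nearly alike between arrays. This narrow range is therefore partly set by the processing and is no check of the tissue. Libraries of 3 control pups stood apart in 10 pancreatic acinar markers, whose summed Cy5 level was 119100 and 103200 in control males 522 and 832 and 21570 in control female 831, against 3942 to 10660 in the other 31 pups. Differences of Rarb, Trim24 and Lrat against control are therefore also given without these 3 libraries, which leaves 2 control males and 3 control females. For Aox1 this is given for hypo minus control in males only. The part of acinar RNA in any result here was not tested. As a check of the labels, the thyroid hormone target Dio1, an activating deiodinase, was lower in hypo than in control pups by 1.46 (SE 0.20) in males and 1.77 (SE 0.27) in females on the log2 scale, with adjusted p = 0.0124 and 0.00923 (limma). Its hyper minus control differences of 0.37 and 0.29 did not pass the test (adjusted p = 1 and 0.967). The further check genes Thrsp and Me1, both of lipid synthesis, passed in neither comparison, with hypo minus control differences of -1.55 and -1.48 for Thrsp and -0.42 and -0.46 for Me1. In hypo+ against hypo, Dio1 and Me1 were called higher in both sexes and Thrsp was not. Dio1 was at 1.52 in males (adjusted p = 0.0015, limma) and Me1 at 0.95 in females (adjusted p = 0.000438, limma). In that comparison 0.369% of all probes were called in males and 0.556% in females. In a bulk sample, fewer cells of a type and less RNA per cell cannot be told apart.

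Rarb encodes retinoic acid receptor beta, whose own transcription is known to be raised by retinoic acid. Its level was higher in the hyper group and lay near control in the hypo and hypo+ groups, in both sexes. In males the log2 ratio was 2.32, 2.63, 2.63 and 2.71 in the 4 control pups and 3.03, 3.13, 3.21, 3.26 and 3.34 in the 5 hyper pups. The hypo males were at 2.30, 2.54, 2.64 and 2.66, and the hypo+ males at 2.40, 2.74, 2.80 and 2.89. Every hyper male lay above every other male, while control, hypo and hypo+ males overlapped. In females the controls were at 2.52, 2.61, 2.63 and 2.68 and the hyper pups at 2.95, 3.06, 3.15, 3.22 and 3.37. The hypo females spread from 2.33 and 2.36 through 2.52 to 2.80 and 2.88, and the hypo+ females were at 2.59, 2.82 and 2.88. The lowest hyper female lay above the highest pup of each other female group.

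The hyper minus control difference of Rarb was 0.62 (SE 0.11) in males, from a mean of 2.57 ± 0.17 (SD, n = 4) to 3.19 ± 0.12 (n = 5), or 1.54-fold. In females it was 0.54 (SE 0.11), from 2.61 ± 0.07 (n = 4) to 3.15 ± 0.16 (n = 5), or 1.45-fold. With normexp background correction the male difference was 0.38. Groups that do not overlap in this comparison were found for 1.27% of all probes in males and 2.55% in females, and adjusted p under 0.05 for 0.0753% and 0.158%. These shares are given as background only, since Rarb was chosen on this contrast. The hypo minus control differences were -0.04 (SE 0.11) in males and -0.03 (SE 0.11) in females, within the spread between pups. With normexp background correction the female value was 0.16, and without the 3 control libraries high in acinar markers the male value was -0.14. After the smaller hormone dose the hypo+ minus control differences were 0.14 (SE 0.11) in males and 0.15 (SE 0.13) in females, and hypo+ lay above hypo by 0.17 (SE 0.11) and 0.19 (SE 0.12). Hyper lay above hypo+ by 0.48 (SE 0.12) in males and 0.38 (SE 0.11) in females, with no overlap between the 2 injected groups in either sex. The SE of this comparison came from the spread in the 2 groups alone, whereas the other SE came from the fit of all 4 treatment groups. Rarb thus stood apart from controls in 1 of the 2 injected groups, the group with the larger dose and no drugs, and dose and drugs cannot be told apart here.

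**Figure D1:**
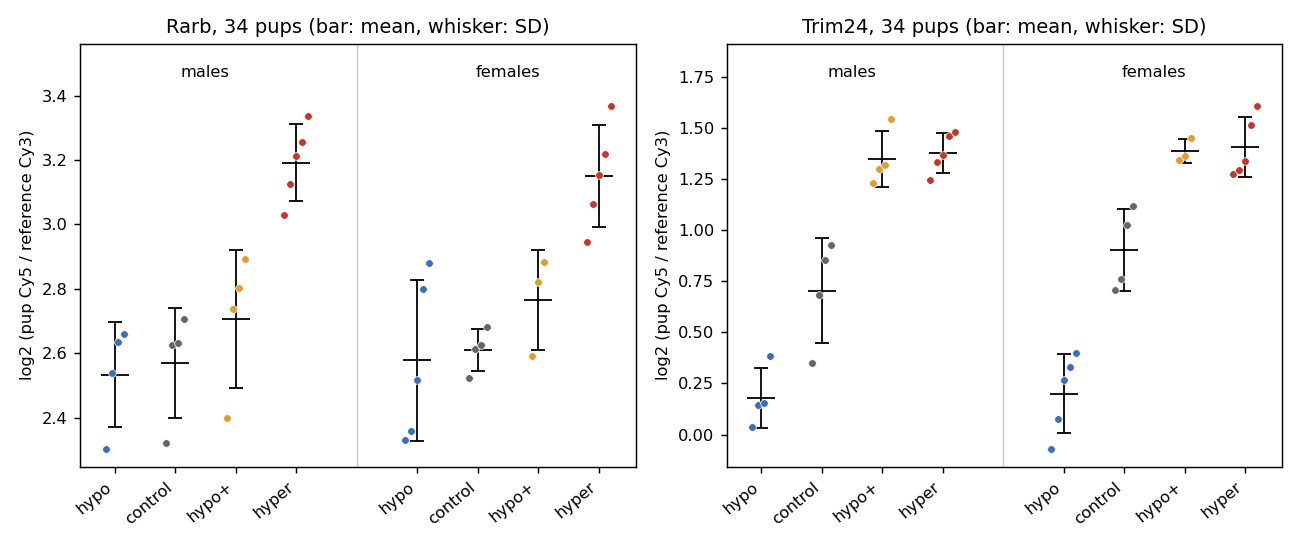
Log2 ratio of pup to reference for Rarb (left) and Trim24 (right), with 1 point per pup, ordered by sex and treatment; horizontal bars are group means and whiskers 1 SD. Rarb stands apart in the hyper groups (2.95 to 3.37), while Trim24 is lowest in hypo (-0.07 to 0.40) and about equally high in hypo+ and hyper (1.23 to 1.60).

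Trim24 encodes a coregulator of the TIF1 family that binds nuclear receptors and is known to restrain retinoic acid receptor activity in mouse liver. Its level followed the treatments in both directions, lowest in hypo pups, intermediate in controls and highest in both injected groups. Male controls were at 0.35, 0.68, 0.85 and 0.93, and hypo males at 0.04, 0.14, 0.16 and 0.38. Hypo+ males were at 1.23, 1.30, 1.32 and 1.54, and hyper males at 1.24, 1.33, 1.37, 1.46 and 1.48. Both injected male groups lay wholly above the controls, while the hypo group lay below them except that the highest hypo pup (0.38) passed the lowest control (0.35, pup 522, 1 of the libraries high in acinar markers). Female controls were at 0.71, 0.76, 1.02 and 1.12, and hypo females at -0.07, 0.08, 0.27, 0.33 and 0.40. Hypo+ females were at 1.34, 1.36 and 1.45, and hyper females at 1.28, 1.29, 1.34, 1.51 and 1.60. The female groups fell into 3 levels without overlap, hypo below control and control below both injected groups, which overlapped each other.

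The hypo minus control difference of Trim24 was -0.52 (SE 0.11) in males, from 0.70 ± 0.26 (SD, n = 4) to 0.18 ± 0.15 (n = 4), and -0.70 (SE 0.10) in females, from 0.90 ± 0.20 (n = 4) to 0.20 ± 0.19 (n = 5). The hyper minus control difference was 0.67 (SE 0.10) in males and 0.50 (SE 0.10) in females, and the hypo+ minus control difference 0.64 (SE 0.11) and 0.48 (SE 0.12). With median centring in place of loess the hypo+ minus control difference in males was 0.40. Within drug-exposed pups the 2 sexes gave nearly the same value: hypo+ lay above hypo by 1.17 (SE 0.11) in males and 1.19 (SE 0.11) in females, or 2.25-fold and 2.27-fold. Hyper and hypo+ differed by 0.03 (SE 0.08) in males and 0.02 (SE 0.07) in females, with SE again from these 2 groups alone and not from the fit. Dose and drugs both differed between these groups and cannot be told apart here. As background, groups of hypo+ and hypo that do not overlap were found for 4.61% of all probes in males and 5.06% in females, and nothing is read from this for a gene chosen on its response. The comparisons against control share the same control pups, so they are not independent of each other.

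Rarb and Trim24 therefore had different profiles across the same pups. Trim24 was about as high in hypo+ as in hyper pups and was low in hypo pups, whereas Rarb was high in hyper pups and was near control elsewhere. Hyper and hypo+ pups differed in both dose and drugs, so neither profile is read as a response to dose. Pearson's r between the 2 log2 ratios was 0.65 over the 34 arrays, a description over pups that share groups and slides. Among the 15679 named probes well above background in Cy5 on all arrays, the 5 genes most like Rarb were Arhgap24 (r = 0.84), Fndc5 (0.82), Frmd8 (0.81), Fbxo4 (0.81) and Bivm (0.81). The hyper minus control differences of Arhgap24 were 0.55 in males and 0.51 in females, but unlike Rarb it was also lower in hypo, at -0.33 and -0.26. Those most like Trim24 were Sned1 (r = 0.96), Stat5a (0.94), Slc25a45 (0.93), Stat5b (0.92) and Nudt7 (0.92). Sned1 had hypo+ minus hypo differences of 1.28 in males and 1.19 in females and hypo minus control differences of -0.68 and -0.75. These genes were picked for their likeness over the same arrays, so similar differences follow from the choice and add no support.

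Differences of both genes inside slides and without the 3 control libraries high in acinar markers are given as a description. Hyper and control pups did not overlap for either gene, nor did hypo and control females for Trim24. Their order inside slides was therefore fixed in advance and adds no support. For Rarb the hypo+ minus control difference in males ran from -0.23 to 0.42 over 3 slides. Rarb was higher in hyper than in control pups on 4 of 4 male slides that held both groups, by 0.49 to 0.71, and on 4 of 4 female slides, by 0.45 to 0.70. Trim24 was higher in hyper than control pups on the same 8 slides, by 0.39 to 1.13 in males and 0.25 to 0.80 in females, and lower in hypo than control pups on 3 of 3 male and 4 of 4 female slides. Without these libraries, the hyper minus control difference of Rarb was 0.52 in males and 0.56 in females. Its hypo minus control difference was then -0.14 and -0.01, and its hypo+ minus control difference 0.04 and 0.18, so the small male values of Rarb rested in part on control males 522 and 832. For Trim24 the hypo minus control difference was -0.63 in males and -0.77 in females, the hyper minus control difference 0.57 and 0.44, and the hypo+ minus control difference 0.54 and 0.42.

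**Figure D2:**
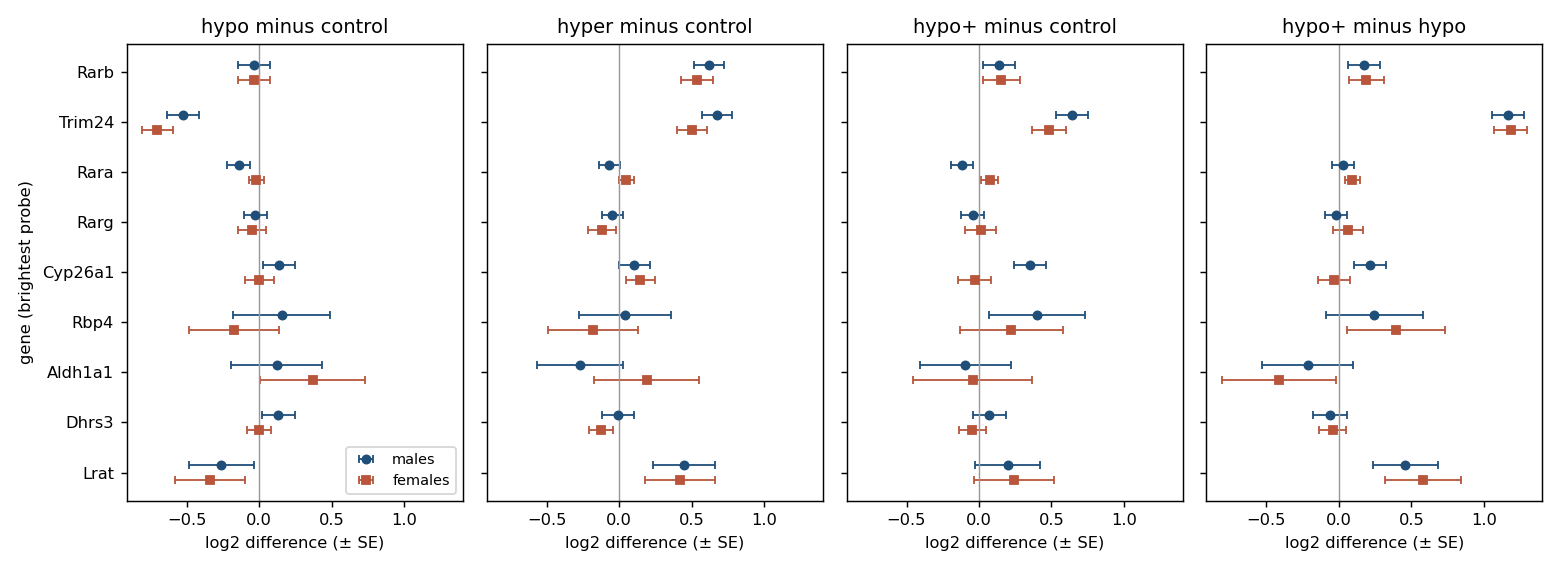
Log2 differences between groups for the brightest probe of each of the 9 genes (rows) in the 4 comparisons (panels), with circles for males, squares for females and bars for 1 SE. Rarb departs from 0 in hyper minus control, Trim24 in every panel, and Lrat has the signs of Trim24 with wider errors, though 2 of them (hypo+ minus control in males, hypo minus control in females) turn with the Feature Extraction ratio and the latter with normexp too.

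The other receptors did not pass the test in any comparison. Over the 7 tested genes, 10 probes and 8 comparisons, 0 of 80 tests had an adjusted p under 0.05 (limma, Benjamini-Hochberg over all 41174 probes), and 3 had an unadjusted p under 0.05, where 4 would be given by chance. Of all probes, 5.19%, 2.98%, 7.56% and 9.18% had an unadjusted p under 0.05 in males and 4.72%, 6.15%, 4.79% and 7.76% in females, for hypo, hyper and hypo+ against control and hypo+ against hypo. The share of all probes called was 0.0971% in males and 0.155% in females for hypo against control, 0.0753% and 0.158% for hyper against control, 0.0267% and 0.0219% for hypo+ against control, and 0.369% and 0.556% for hypo+ against hypo. A count of 0 among 7 genes is what such shares give, and it does not set these genes apart from the array. The smallest adjusted p was 0.441.

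Rara, the receptor alpha found in most tissues, varied little. Its differences ran from -0.14 to 0.09 with SE of 0.05 to 0.08. The 3 hypo+ females (-0.12, -0.08 and -0.06) lay above the 5 hypo females (-0.23 to -0.15), the 1 pair of groups among the 80 tests that did not overlap, where 5.06% of all probes did not overlap in that comparison. The male groups of the same comparison overlapped. In the comparisons not yet given, groups did not overlap for 3.08% of all probes in males and 1.78% in females (hypo against control) and for 4.11% and 5.89% (hypo+ against control). Rarg, the gamma receptor known mainly from skin, had differences of -0.12 to 0.06 on the brighter probe and -0.11 to 0.14 on the dimmer one. The Cy5 signals of Rara and of the dimmer Rarg probe were low, with medians of 115.8 and 108.8 units over the arrays, and no background was subtracted.

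Cyp26a1 encodes the cytochrome P450 that breaks down retinoic acid and, like Rarb, is a gene known to be induced by retinoic acid. Its levels were near those of the reference in every group, with group means of 0.21 to 0.57, and its hyper minus control differences were 0.11 (SE 0.11) in males and 0.15 (SE 0.10) in females. Its Cy5 signal was low too, with a median of 159 units over the arrays (118 to 212.5), though well above background on all 34. No background was subtracted, which limits what its small differences show. The widest difference was in hypo+ against control males, 0.35 (SE 0.11, adjusted p = 0.441, limma). The 4 control males were at 0.05, 0.14, 0.30 and 0.37 and the 4 hypo+ males at 0.32, 0.56, 0.59 and 0.79. The same difference in females was -0.03 (SE 0.11), with controls at 0.19, 0.30, 0.52 and 0.54 and hypo+ pups at 0.21, 0.21 and 0.64. The sex difference of this response was -0.38 (SE 0.17) and did not pass the test (adjusted p = 1, limma).

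Rbp4, the plasma carrier of retinol made by hepatocytes, differed by -0.18 to 0.40 with SE of 0.31 to 0.35. Its spread between pups followed the slides. The Cy5 signal of Rbp4 ran from 290300 to 389000 units over the 34 arrays, while its ratios ran from 5.33 to 7.22, and the cause was not tested. In 8 of 8 groups the pup with the highest ratio was on 1 of the 2 slides scanned together on 1 day, which held 1 pup of each group, and these 8 pups lay 0.68 above their group means on average (0.20 to 0.99). With slide as a block the SE fell to 0.08 to 0.18. In males Rbp4 was then higher in hypo than control pups by 0.26 (adjusted p = 0.467) and higher in hypo+ than control pups by 0.30 (adjusted p = 0.401), and in females these differences were -0.13 and -0.02.

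Aldh1a1, which oxidises retinal to retinoic acid, varied widely from pup to pup. Its ratio ran from 0.66 to 2.95 among the 5 hypo females and from 1.18 to 2.89 among the 4 hypo males, and the control males ran from 2.19 to 2.31. Differences were -0.41 to 0.37 with SE of 0.30 to 0.41, none beyond the spread between pups. Dhrs3, a retinal reductase that turns retinal back to retinol and is known to respond to retinoic acid, had differences of -0.12 to 0.13 on its brighter probe. Its dimmer probe was lower in hyper than control females by 0.23 (SE 0.09, adjusted p = 0.635), and the brighter probe by 0.12 (SE 0.08, adjusted p = 0.93) in the same comparison. In males the 2 probes differed by -0.01 and -0.06 between hyper and control pups. On the brighter probe the pup with the highest Dhrs3 ratio was on the same 2 slides as for Rbp4 in 8 of 8 groups. On the dimmer probe this did not hold for control males, where pup 391 on another slide (1.71) lay above pup 832 on those slides (1.53). With slide as a block, the hyper minus control difference in females was -0.23 (SE 0.05) on the dimmer probe and -0.15 (SE 0.06) on the brighter one, with adjusted p = 0.1 and 0.321.

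Lrat, the enzyme that esterifies retinol for storage and a defining gene of stellate cells, had differences of the same sign as those of Trim24 in the 8 comparisons, but did not pass the test in any. Its sign turned in 2 of them with the Feature Extraction ratio, hypo+ minus control in males (-0.14) and hypo minus control in females (0.44), and in the latter with normexp too (0.033). On its brighter probe the male controls were at 3.12, 3.16, 3.56 and 3.71, the hypo males at 2.74, 3.06, 3.15 and 3.56, and the hyper males at 3.55, 3.62, 3.74, 4.04 and 4.22. The hypo+ males were at 3.04, 3.33, 3.92 and 4.05. Hyper males thus lay high and hypo males low, but each overlapped the controls. Female controls were at 2.95, 3.41, 3.74 and 4.22, hypo females at 3.01, 3.12, 3.13, 3.23 and 3.70, and hyper females at 3.62, 3.72, 3.87, 4.25 and 4.55. The hypo+ females were at 3.58, 3.61 and 4.28. On the brighter probe the order of the group means was the same in both sexes, hypo, control, hypo+ and hyper, and neighbouring groups overlapped. On the dimmer probe the hypo+ mean was the highest, at 2.37 against 2.14 for hyper in males and 2.22 against 2.18 in females.

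The hyper minus control difference of Lrat was 0.45 (SE 0.21, adjusted p = 1) in males and 0.42 (SE 0.24, adjusted p = 0.889) in females, the hypo minus control difference -0.26 (SE 0.22) and -0.34 (SE 0.24), and hypo+ lay above hypo by 0.46 (SE 0.22, adjusted p = 0.567) and 0.58 (SE 0.26, adjusted p = 0.6). On the dimmer probe the signs were the same in these comparisons, with hypo+ above hypo by 0.49 in males and 0.59 in females. Its hyper minus control differences were smaller, at 0.13 (SE 0.30) in males and 0.21 (SE 0.37) in females. With slide as a block the hyper minus control difference on the brighter probe was 0.44 in both sexes (SE 0.13 and 0.12, adjusted p = 0.632 and 0.149). Hyper pups were higher than control pups on 4 of 4 male slides (0.33 to 0.66) and on 3 of 4 female slides (-0.02 to 0.84). Without the 3 control libraries high in acinar markers it was 0.40 in males and 0.64 in females, the hypo minus control difference was -0.31 and -0.13, and the hypo+ minus control difference 0.15 and 0.45. Lrat did not pass the test under any setting run. The reference RNA held little Lrat, since its Cy3 signal was well above background on 3 of 34 arrays for the brighter probe and 1 for the dimmer one, so these ratios rest on a weak denominator. With the Cy5 channel alone, which leaves the reference out, the hyper minus control differences were 0.30 in both sexes, and hypo+ lay above hypo by 0.44 in males (adjusted p = 0.0891) and 0.46 in females (adjusted p = 0.227).

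**Figure D3:**
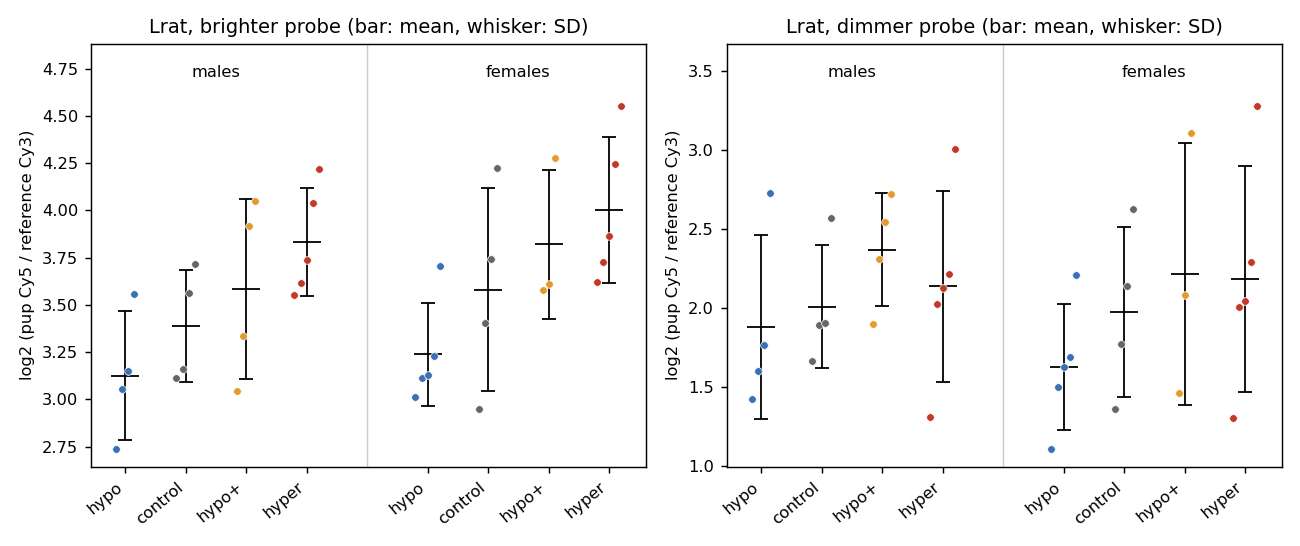
Log2 ratio of pup to reference for the brighter (left) and the dimmer (right) Lrat probe, with 1 point per pup, group means as bars and SD as whiskers. On the brighter probe hypo pups sit low (2.74 to 3.70) and hyper pups high (3.55 to 4.55), and each group overlaps the controls.

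The 12 stellate cell markers, taken as a summed level, did not follow the order of the brighter Lrat probe. They include Lrat, and 11 or 12 of the 12 were well above background in Cy5 on each array, with Gfap above it on 30 of 34. Their summed Cy5 level had a median of 38480 in control, 37070 in hyper, 41160 in hypo and 38840 in hypo+ males, and of 37380, 37460, 39290 and 40200 in the same groups of females, within a range of 30530 to 44700 over all pups. Such a sum is led by its brightest genes, so it does not show how the dimmer markers moved. None of the 12 passed the test in any of the 8 comparisons.

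With slide or scan day as a block, 16 of the 80 tests on the 7 genes had an unadjusted p under 0.05, 20% against 8.15% and 8.37% of all probes under the same blocks. Under both blocks most of these 16 were on the Lrat probes, and none on those of Rarg or Aldh1a1, so the share is not one of the genes as a set. In all, 0 passed adjustment, with smallest adjusted p of 0.1 and 0.078 (limma). The latter was the dimmer Lrat probe in hypo+ against hypo females, with scan day as a block and a difference of 0.55 (SE 0.13). With slide as a random block 7 of the 80 tests had an unadjusted p under 0.05, against 7.94% of all probes. The highest pup of a group was on the same 2 slides in 6 of 8 groups for Lrat (brighter probe), 5 for Rarb and 3 for Trim24, and these 8 pups lay 0.43, 0.13 and 0.04 above their group means on average. These tests overlap in probes and control pups, so they are not 80 separate results.

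No sex difference in response passed the test, in a fit that took all pups as independent although males and females of a treatment may share dams. For the 12 member probes the sex by treatment interaction was called in 0 of the 4 contrasts, as it was for 0% of all probes, and 1 interaction had an unadjusted p under 0.05, that of Cyp26a1 above, where 1.33% of all probes did in that contrast and 1.04%, 1.26% and 2.11% did for hypo and hyper against control and hypo+ against hypo. The interaction in hyper against control was -0.08 (SE 0.16) for Rarb and -0.17 (SE 0.15) for Trim24. Averaged over treatments, females and males differed by 0.03 (SE 0.06, adjusted p = 0.928) for Rarb and 0.07 (SE 0.06, adjusted p = 0.736) for Trim24. None of the 12 probes was called for sex or had an unadjusted p under 0.05, against 0.0996% and 9.38% of all probes.

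Beyond the 9 members, 57 further genes of retinoid biology were followed across 9 lists of receptors, coregulators, carriers, enzymes and retinoic acid targets. Of these 57, with 82 probes, 3 were called in any of the 8 comparisons, each in 1 comparison and each higher. The share of all probes called was 0.0219% to 0.556% in single comparisons, and the share called in any of the 8 was not counted. The count of 3 is therefore not read as setting these genes apart from the array. The median difference of the 57 stayed between -0.04 and 0.07. Of the called genes, 2 are described here. All probes had a median difference between -0.01 and 0.

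The aldehyde oxidase gene Aox1, whose product can oxidise retinal among many other substrates, was higher in the hypo males. It was at 0.30 ± 0.13 (SD, n = 4) in control males and 1.35 ± 0.42 (n = 4) in hypo males. The difference was 1.05 (SE 0.16, adjusted p = 0.0169, limma), 2.07-fold. Hypo females showed 1.25 (SE 0.24, adjusted p = 0.0562). The hypo+ minus control difference was 0.71 in males and 1.17 in females and did not pass the test (adjusted p = 0.248 and 0.323, limma). The hypo+ minus hypo difference of Aox1 did not pass the test, at -0.34 (SE 0.16) in males and -0.08 (SE 0.27) in females. The male call was lost without control male 832, 522 or 391 or hypo male 576 or 311 (adjusted p = 0.0628, 0.0547, 0.0622, 0.0566 and 0.068), with differences of 0.90 to 1.06, and without both control males high in acinar markers (difference 0.95, adjusted p = 0.307).

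Rdh13, a retinol dehydrogenase family member of mitochondria, was higher in hyper than in control females by 0.36 (SE 0.06, adjusted p = 0.0302), from -0.19 ± 0.08 (SD, n = 4) to 0.16 ± 0.07 (n = 5), and by 0.24 (SE 0.08, adjusted p = 1) in males. The call was lost without control female 523, 394 or 882 or hyper female 621, 585 or 783 (adjusted p = 0.121, 0.116, 0.105, 0.0786, 0.0802 and 0.0727), with differences of 0.33 to 0.36.

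**Figure D4:**
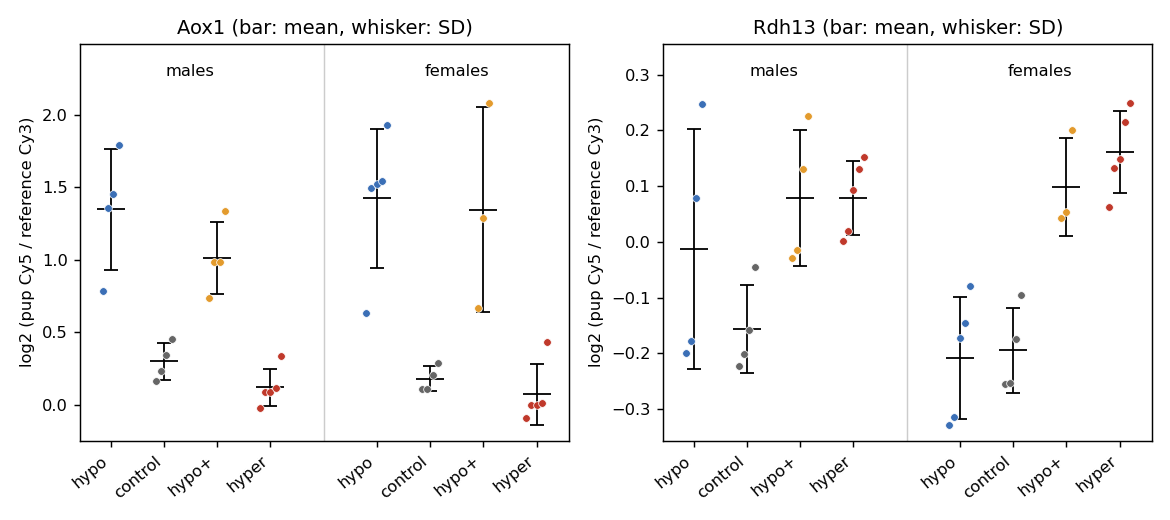
Log2 ratio of pup to reference for Aox1 and Rdh13, with 1 point per pup, group means as bars and SD as whiskers. Aox1 means are higher in both drug-exposed groups (1.01 to 1.42) than in controls, though of these only hypo against control in males was called. Rdh13 means are higher in the hypo+ and hyper groups than in controls, and so is the hypo mean in males (-0.01 against -0.16), with only hyper against control in females called.

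Where a list had no called gene, its gene with the smallest unadjusted p is given. Among receptors this was Rxra, the partner of both receptor kinds in liver, at -0.23 (SE 0.08, adjusted p = 0.521) in hyper against control females. Among the other TIF1 genes it was Trim28, at 0.29 (SE 0.07, adjusted p = 0.331) in hyper against control males, and Trim28 did not pass the test in any comparison. Among binding and transport genes it was Stra6, the cell surface receptor for retinol-bound Rbp4, at 0.24 (SE 0.09, adjusted p = 0.504) in hypo+ against control males. Among storage genes it was Pnpla3, a lipase that can release retinol from retinyl esters, at 1.09 (SE 0.22, adjusted p = 0.0715) in hyper against control females and 0.63 (SE 0.20, adjusted p = 0.876) in males. Cyp26b1, the further retinoic acid breakdown gene measured, was at -0.39 (SE 0.23, adjusted p = 0.9) in hyper against control females. Among retinoic acid target genes it was Nrip1, a coregulator, at 0.25 (SE 0.09, adjusted p = 0.668) in hypo against control females. None of the 9 non-member target genes on the array was called in any comparison.

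**Figure D5:**
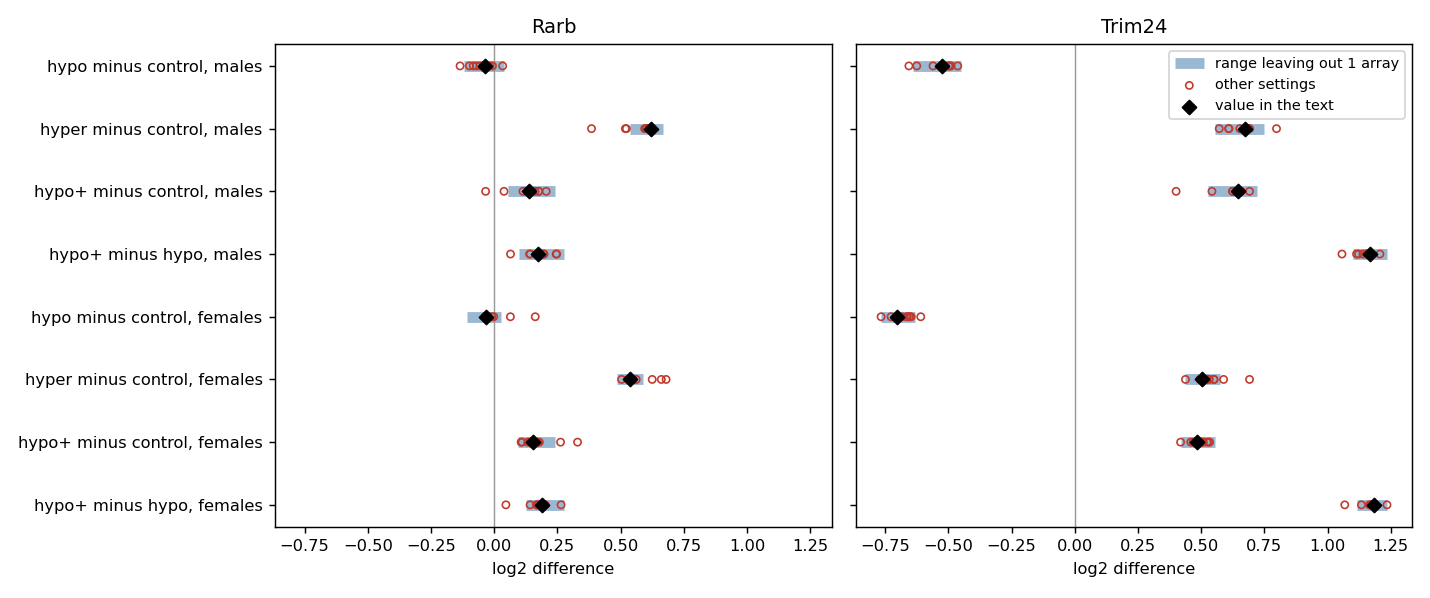
Log2 difference of Rarb (left) and Trim24 (right) in each comparison and sex (rows) as given in the text (diamonds), under the other processing settings (open circles) and as the range when 1 array is left out (bars). The Rarb values for hyper minus control stay above 0 (0.38 to 0.68) and its other values lie between -0.14 and 0.33, while the Trim24 values keep their sign in every row.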

How the data were processed

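Liver RNA of 34 pups was hybridised to 2-colour Agilent whole-genome arrays, with each pup in Cy5 and a universal mouse reference in Cy3 on every array and no dye swap. Per the file headers, Feature Extraction 10.1.1.1 gave the deposited scanner intensities (median signals per spot), flags and a log10 ratio of Cy5 over Cy3. The authors also deposited a table of log2 values per array, which correlated with the loess ratios computed here at r of 0.9925 to 0.9959 per array, so its scale and direction match; its medians were -0.05 to -0.02, and its exact centring is not stated. The reference and the dye orientation were the same throughout, so dye effects are shared by all groups.

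Control spots and flagged spots (77 to 212 per array) were left out, median signals were loess-normalized within arrays without background subtraction, and spots of a probe were averaged (R 4.3.3, limma 3.58.1). Each sex was fitted separately with 4 treatment groups, and called probes had a Benjamini-Hochberg p of under 0.05 across the 41174 probes of the array. The methods' permutation-based Fs test was replaced by limma. The limma script was tested on simulated data. Probes were named through RefSeq accessions of GRCm38.p6 (16806 of 33541 names matched). A gene's value is that of its brightest probe. Pups of separate numbers were taken as replicates, 3 to 5 per group, and that number limits the precision. The hormone dose and drug exposure are those in the labels and methods, which place the start of drug exposure on different days. A further 2 arrays of each sex that the methods describe as removed were not analysed here.

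Members and lists were chosen with earlier results of these data known. Named genes were all 9 members, called genes of the wider lists or else the gene with the smallest p, the genes most like Rarb and Trim24, and check genes. Alternatives were normexp background correction (offset 50, on median signals, the ones in the files), median centring, the authors' values, the Feature Extraction ratio, Cy5 alone after quantile normalization, a filter on dim probes, slide or scan day as blocks, 1 fit of both sexes, averaging probes, and leaving out each array. Leaving out the 3 control arrays with high acinar markers (over 3 times the median array) was chosen after seeing the data. A called gene of the wider lists is not reported here. Fabp5, Cyp26c1 and Rarres1 were matched to no probe by accession and were not analysed here. Figures were drawn with matplotlib 3.10.9.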

Additional observations from a re-analysis of the deposited data

Results flagged for a closer look

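Among 84 tests of a member probe in a group of 4 or 5 pups, 4 had 1 pup far from the others by Dixon's gap, where chance gives about 4.2. Rbp4 was at 7.18 in hypo male 576, against 5.77 to 5.99 in the other 3 hypo males. That pup was on a slide of the scan day that held the highest Rbp4 ratio of every group, so the value may belong to the slide and not the pup, which was not tested. Aldh1a1 supplied the other 3. It was at 2.57 in hypo+ male 454, against 1.95 to 2.05 in the rest of that group, at 1.498 in hyper female 861, against 2.18 to 2.36, and at 0.66 in hypo female 721, against 2.40 to 2.95. Rarb and Trim24 had no such pup in any group tested.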

How the results depend on the processing

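No paired analysis was possible because no replicate numbers are shared between groups, and slide and scan day were used as blocks instead. The count of called genes among the 7 tested members stayed at 0 in all 8 comparisons under every alternative and every left-out array, as did the count for the sex by treatment interaction under the 4 alternatives run for it. Of the Rarb and Trim24 differences, 5 moved by at least 1 SD between pups. For Rarb, hyper minus control in males was 0.38 and hypo minus control in females 0.16 with normexp background correction, and hypo+ minus control in males was -0.034 with median centring. For Trim24, median centring gave 0.40 for hypo+ minus control in males and 0.69 for hyper minus control in females. Without 1 array at a time, Rarb in hyper minus control ran from 0.54 to 0.67 in males and 0.48 to 0.59 in females, and Trim24 in hypo+ minus hypo from 1.1025 to 1.24 and 1.12 to 1.23. Lrat changed sign with the Feature Extraction ratio in hypo+ minus control males (-0.14) and hypo minus control females (0.44), and with normexp in the latter (0.033); the cause was not tested. Median centring ended the calls of Aox1 and Rdh13 (adjusted p = 1 and 0.915), as did the Feature Extraction ratio and Cy5 alone, with 0.0794 and 0.0665 for Aox1 and 0.0901 and 0.154 for Rdh13. Under these 3 settings the differences were 0.92, 1.14 and 1.06 for Aox1 and 0.38, 0.49 and 0.39 for Rdh13, about as large as reported or larger. Counts of called probes over the array were far less stable. Across settings other than left-out arrays they ran from 0 to 65, 1 to 62, 0 to 30 and 6 to 282 in males for hypo, hyper and hypo+ against control and hypo+ against hypo (40, 31, 11 and 152 as reported), and from 8 to 150, 6 to 201, 0 to 12 and 31 to 324 in females (64, 65, 9 and 229).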
